A study of Mus musculus with 8 samples.

Results

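Enzymes of the tricarboxylic acid cycle were followed in MTP-deficient and wildtype MA-10 cells, a line derived from a mouse Leydig cell tumour that makes progesterone when cAMP signalling is stimulated. The 9 genes were taken from the count table by name: Cs, Idh3a, Idh3b, Idh3g, Ogdh, Sucla2, Suclg1, Fh1 and Mdh2. All 9 had a row among the 54532 genes of the table, and all 9 were among the 13185 genes with enough reads to be tested. Their counts ran between 964 and 11306 reads per library, so none passed the filter on low counts through 1 group alone.

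The tested cells were MTP KO cells (4 libraries), in which Mttp, the gene for microsomal triglyceride transfer protein, had been targeted with CRISPR/Cas9. They were set against WT cells (4 libraries). Every library of both groups came from a culture grown for 48 h and then given 0.5 mM 8-BrcAMP, a cell-permeable cAMP analog, for 3 h, so that the values describe stimulated cells only and hold no unstimulated state. The genotype field of the labels reads wildtype throughout, and the groups were taken from the sample titles. The KO cells were grown as clones, and the sources used here do not name the clone behind these libraries. What the knockout did and what clonal growth did cannot be told apart, and each p reflects only how far the libraries of a group spread, which may be technical.

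The cycle runs in the mitochondrial matrix, where it oxidises acetyl-CoA to carbon dioxide and passes the electrons to the respiratory chain. It also supplies building blocks: citrate that leaves the mitochondrion is cleaved in the cytosol to give the acetyl-CoA from which cholesterol and fatty acids are made. In Leydig cells the inner mitochondrial membrane holds the cytochrome P450 that cuts the side chain of cholesterol, a reaction that needs NADPH formed in part by enzymes that use malate and isocitrate.

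Of the 9 enzyme genes, Ogdh and Sucla2 rose in KO cells, by 18.1% and 16.5%, 0 fell, and 7 did neither by the edgeR quasi-likelihood test with Benjamini-Hochberg adjustment over all tested genes. Over all tested genes 21.7% rose and 21.1% fell, and 42.7% did either, so 2 of 9 is near the background and is no result about these enzymes as a group. None of the 9 passed a log2 fold change of 0.5, a limit above which 7.35% of tested genes rose and below the negative of which 8.44% fell. Without adjustment, at p under 0.05, the number that fell stayed 0, and it was 0 by DESeq2 and by limma voom. The median log2 fold change of the 9 was 0.029, with single genes between -0.022 and 0.24, against a median of -0.0019 over all tested genes. The groups did not overlap for 1 of the 9, Sucla2, while 38.6% of tested genes had groups that did not overlap.

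Short stretches of 3 promoters are shown because the cells were stimulated through cAMP and because Ogdh and Sucla2 are the enzymes that rose. They come from windows of 300 bases (250 before and 50 after the start of a RefSeq transcript) on GRCm38.p6. All lie on the plus strand and are written 5′ to 3′. The capitals mark, in Ogdh at chr11:6291535-6291564 and in Mdh2 at chr5:135778510-135778539, the full cAMP response element TGACGTCA, and in Sucla2 at chr14:73552759-73552788 a match to the NRF1 motif.
Ogdh: acccaattctgTGACGTCAcgtcacgccca
Mdh2: cggagagaatcgTGACGTCAggcctcgctc
Sucla2: ctgcgtctctGCGCCTGCGCggtgcccagg

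Of the 9 genes, 8 matched the promoter table, with 13 windows, and Idh3a did not. The element TGACGTCA reads the same on both strands and stood in windows of 2 of these 8 genes, Ogdh and Mdh2, against 2.03% of the 27025 genes of the table. In Ogdh a single site was read from 3 overlapping windows, with its first base 51, 60 or 113 bases before the start of the window's transcript. In Mdh2 the element lay 127 bases before the start of the window's transcript. That position is inside the gene as the count table places it, from 135778480 on. Ogdh rose and Mdh2 did not pass the test. Every library was stimulated, so these calls do not measure a response to cAMP and say nothing about the element. The NRF1 motif (GCGCA, any base, GCGC), searched on both strands, was found in Sucla2 only, against 5.19% of genes. It lay 17 bases before the start of the window's transcript. That position is inside Sucla2 as the count table places it, from 73525319 to 73596142. The ETS family core CCGGAAG was found in Idh3b and Idh3g (9.93% of genes), the ERR half-site AAGGTCA in another window of Ogdh (5.38%), and the sterol regulatory element TCACNCCAC in none of the 8 (1.44%). A match of letters is a description of these windows and no evidence of binding.

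The targeted gene was checked first. Mttp (ENSMUSG00000028158), which lies on chromosome 3 at 138089854 to 138144968, had 5.09, 4.52, 6.75 and 7.13 CPM (read counts per library, put on a common scale by TMM) in KO libraries 1 to 4, against 12.9, 11.9, 13.3 and 14.4 CPM in WT libraries 1 to 4. Its log2 fold change was -1.15 (SE 0.135, edgeR adjusted p = 4.45e-06). Transcript of the edited gene is still counted, so these values do not measure protein. Libraries held 14927989 to 18394797 counts in KO cells and 15075610 to 16321292 in WT cells. Counts of any pair of libraries within a group lay further apart than counting noise gives, by a factor of 3.42 to 15.1 (chi-square over its degrees of freedom).

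Of 7 Leydig cell markers all 7 were tested, and 5 rose and 2 did neither, with a summed level of 7735 to 8443 CPM in KO cells and 6925 to 7815 CPM in WT cells. Transcripts of the steroidogenic enzymes, the LH receptor and Insl3 were thus present in the cells labelled as Leydig cells. Sertoli cell markers summed to 373 to 417 CPM in KO cells and 234 to 251 CPM in WT cells, most of it Rhox5, with Cldn11 at 0, and 1 of the 4 tested rose. Endothelial markers summed to 100.3 to 119.5 CPM in KO cells and 182 to 210 CPM in WT cells, nearly all of it Cdh5, and 1 of the 2 tested fell. Several markers that define other cell types had no read in any library. Macrophage markers summed to 6.47 to 8.98 CPM in KO cells and 16.4 to 21.4 CPM in WT cells, with Adgre1 and Ptprc at 0 in every library, and both tested genes fell. Markers of myoid cells and fibroblasts summed to 11.1 to 13.0 CPM in KO cells and 22.7 to 24.5 CPM in WT cells (1 of the 2 tested fell), and germ cell markers to 3.51 to 5.97 CPM in KO cells and 1.89 to 4.53 CPM in WT cells (Tnp1 at 0). In bulk RNA, fewer cells of a type and less RNA per cell cannot be told apart, and the part of these markers in the results below was not tested.

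Citrate synthase, encoded by Cs on chromosome 10 (128337734 to 128362479 in GRCm38), joins acetyl-CoA to oxaloacetate and is often used as a measure of mitochondrial content. It had 298, 312, 308 and 315 CPM in KO libraries 1 to 4 and 305, 303, 294 and 306 CPM in WT libraries 1 to 4. The groups overlapped, and all 8 libraries lay within a narrow band. The log2 fold change was 0.029 (SE 0.0422, edgeR adjusted p = 0.616), with a 95% interval of -0.061 to 0.12. In percent of the WT level, the interval reaches from -4.11% to 8.57%.

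NAD-dependent isocitrate dehydrogenase, the first oxidising enzyme of the cycle, is built from the catalytic subunit of Idh3a and the subunits of Idh3b and Idh3g. None of the 3 genes passed the test. Idh3a, on chromosome 9 (54586334 to 54604661), had 132.3, 126.3, 132.4 and 125.2 CPM in KO libraries and 116.4, 120.4, 123.3 and 138.3 CPM in WT libraries, where library 4 lay above every KO library and the other three WT libraries below them all. Its log2 fold change was 0.051 (SE 0.0562, interval -0.068 to 0.17, edgeR adjusted p = 0.50).
Idh3b, on chromosome 2 (130279309 to 130284547), had 100.3, 101.2, 95.6 and 95.4 CPM in KO libraries and 93.3, 102.1, 99.6 and 101.9 CPM in WT libraries. Its groups lay over each other, with a log2 fold change of -0.016 (SE 0.0496, interval -0.12 to 0.089, edgeR adjusted p = 0.823). The gene shares 5 bases with Nop56 on the opposite strand, and the sources used here do not state whether counting used strand. Idh3g, on chromosome X (73778963 to 73786897), had 94.0, 90.3, 88.9 and 84.7 CPM in KO libraries and 83.5, 82.7, 88.3 and 83.4 CPM in WT libraries. Here 3 KO libraries lay above every WT library and KO library 4 lay among them, and the log2 fold change of 0.083 did not pass the test (SE 0.0505, interval -0.024 to 0.19, edgeR adjusted p = 0.202).

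The 2-oxoglutarate dehydrogenase complex converts 2-oxoglutarate to succinyl-CoA, and Ogdh encodes its E1 subunit, which carries out the decarboxylation. Ogdh (chromosome 11, 6291633 to 6356642) had 539, 634, 616 and 654 CPM in KO libraries 1 to 4, against 558, 536, 518 and 456 CPM in WT libraries 1 to 4. KO libraries 2, 3 and 4 lay above every WT library, KO library 1 lay between WT libraries 2 and 1, and WT library 4 was the lowest of the 8. The mean was 611 ± 50.1 CPM in KO cells and 517 ± 43.7 CPM in WT cells (SD, n = 4 each), a log2 fold change of 0.24 (SE 0.0663, interval 0.099 to 0.38, edgeR adjusted p = 0.00815). In percent the rise was 18.1%, with an interval of 7.12% to 30.2%. That size was unremarkable in this comparison, since 56.3% of all tested genes had a smaller absolute fold change.

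The share of counts from mitochondrially encoded genes was set beside Ogdh in each library. It was 6.16, 4.92, 5.24 and 5.17% in KO libraries 1 to 4 and 3.65, 4.13, 3.79 and 4.80% in WT libraries 1 to 4. The library with the highest share in each group, KO 1 and WT 4, had the lowest Ogdh of its group. That order did not hold throughout, since KO library 4 exceeded KO library 2, and WT library 2 exceeded WT library 3, in both values. With this share as a covariate, an alternative added after the data had been seen, the log2 fold change of Ogdh was 0.52 (edgeR adjusted p = 1.37e-05). The share did not overlap between KO and WT libraries, so that fit separates it from genotype only by the spread within groups. Leaving out KO library 1 gave 0.30 and leaving out WT library 4 gave 0.19, and Ogdh remained called in each of the 8 fits that left out 1 library.

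Succinyl-CoA ligase makes ATP or GTP in the only substrate-level phosphorylation of the cycle. Suclg1 encodes the alpha subunit shared by both forms, Sucla2 the beta subunit of the ATP-forming enzyme and Suclg2 that of the GTP-forming enzyme. Sucla2, on chromosome 14 (73525319 to 73596142), had 110.4, 101.8, 115.8 and 106.2 CPM in KO libraries 1 to 4, against 84.2, 90.9, 101.2 and 96.7 CPM in WT libraries 1 to 4. Every KO library was above every WT library, by a margin of less than 1 CPM between KO library 2 and WT library 3. Sucla2 rose to 108.5 ± 5.96 CPM in KO cells, against 93.2 ± 7.36 CPM in WT cells (SD, n = 4 each), a log2 fold change of 0.22 (SE 0.0613, interval 0.090 to 0.35, edgeR adjusted p = 0.0087).
Genes of chromosome 14 had a median log2 fold change of 0.082. Centring on that median left 0.14 for Sucla2, which was no longer called (t test with the edgeR SE, adjusted p = 0.0889). The mitochondrial share as a covariate left 0.13 (edgeR adjusted p = 0.347). Suclg1, on chromosome 6 (73248382 to 73276911), had 69.2, 70.6, 64.6 and 64.6 CPM in KO libraries and 65.0, 69.9, 62.8 and 70.0 CPM in WT libraries. The groups lay within the same range, with a log2 fold change of 0.0059 (SE 0.0569, interval -0.12 to 0.13, edgeR adjusted p = 0.947).

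Fumarase, the product of Fh1, hydrates fumarate to malate, and malate dehydrogenase, the product of Mdh2, oxidises malate to close the cycle. Fh1, on chromosome 1 (175600374 to 175625635), had 179.5, 160.6, 166.6 and 165.3 CPM in KO libraries and 158.8, 167.3, 175.8 and 180.8 CPM in WT libraries, so each group spanned nearly the same interval. Its annotation overlaps that of Kmo, which had 0 to 5 reads per library. Its log2 fold change was -0.022 (SE 0.0534, interval -0.14 to 0.091, edgeR adjusted p = 0.772).
Mdh2, on chromosome 5 (135778480 to 135790398), had 581, 625, 588 and 591 CPM in KO libraries and 597, 604, 622 and 582 CPM in WT libraries. Again the groups overlapped throughout, with a log2 fold change of -0.012 (SE 0.0431, interval -0.10 to 0.080, edgeR adjusted p = 0.852). For both genes the 95% interval excludes a log2 change of more than 0.14 in either direction.

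**Figure D1:**
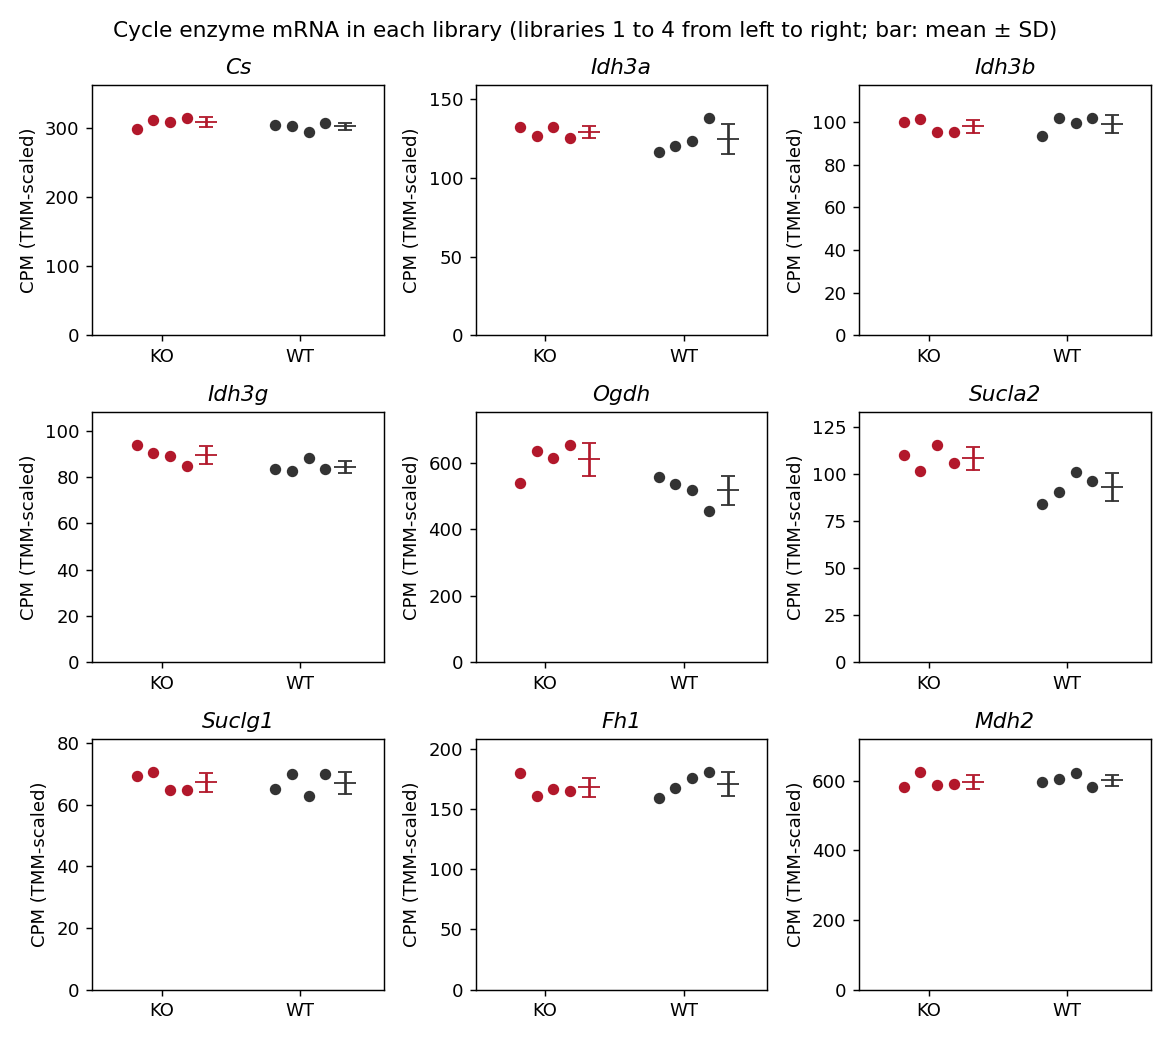
Each panel plots CPM (y axis, from 0) of 1 enzyme gene in the 4 KO libraries (left, red) and the 4 WT libraries (right, grey), with the mean and SD as a bar. Only in the Sucla2 panel do all KO points, from 101.8 CPM upwards, lie above all WT points, which reach 101.2 CPM, while the 2 groups overlap in the other 8 panels, Ogdh included.

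Levels were compared between genes per kilobase of the gene length in the table. In KO cells Mdh2 had the highest level, 167 ± 5.54 CPM per kb, followed by Ogdh at 112 ± 9.18, Cs at 53.3 ± 1.28, Fh1 at 49.5 ± 2.38, Idh3g at 33.1 ± 1.42, Idh3b at 28.7 ± 0.899, Sucla2 at 27.2 ± 1.49, Idh3a at 25.4 ± 0.754 and Suclg1 at 14.6 ± 0.673 CPM per kb (SD, n = 4). In WT cells the order was Mdh2 at 169 ± 4.65, Ogdh at 94.8 ± 8.00, Cs at 52.3 ± 0.916, Fh1 at 50.3 ± 2.85, Idh3g at 31.3 ± 0.956, Idh3b at 29.0 ± 1.20, Idh3a at 24.6 ± 1.88, Sucla2 at 23.4 ± 1.85 and Suclg1 at 14.5 ± 0.780 CPM per kb. Neighbours whose libraries overlapped were Cs and Fh1 in both groups, Idh3b with Sucla2 and Sucla2 with Idh3a in KO cells, and Idh3a with Sucla2 in WT cells. The remaining neighbours were separate, so Mdh2 and Ogdh stood highest and Suclg1 lowest in every library of both groups. Sucla2 and Idh3a exchanged places between the groups, but their ranges overlapped in each, so that exchange is not an ordering beyond the spread. The ranks were the same in TPM. Gene length in the table covers all annotated exons and can exceed the transcript these cells make, which lowers the level per kilobase of genes with many isoforms.

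**Figure D2:**
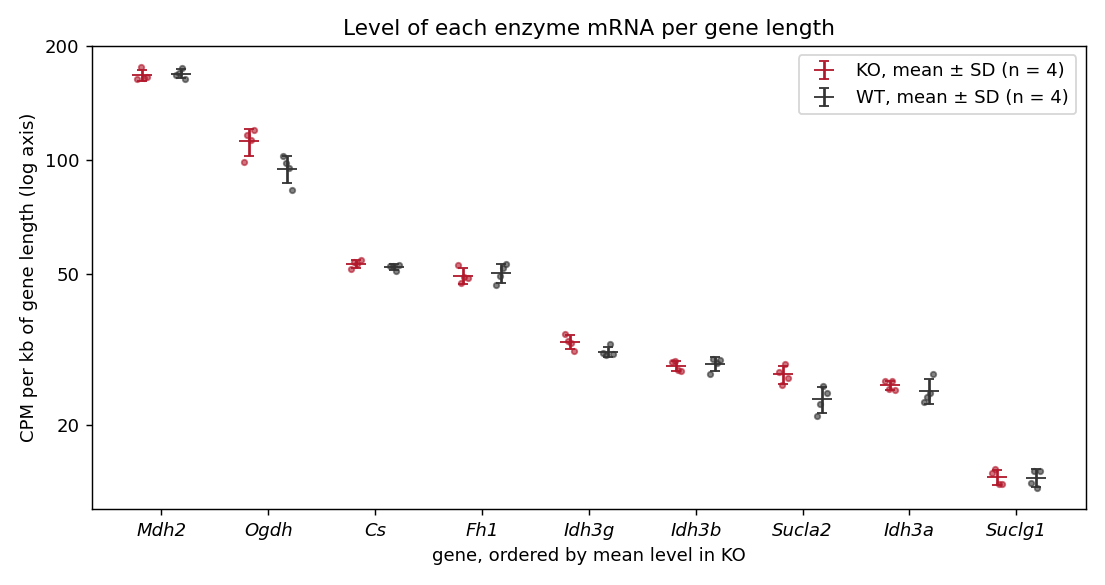
The level of each enzyme mRNA in CPM per kb of gene length (log y axis) is shown for the 4 KO libraries (red, left of each pair) and the 4 WT libraries (grey, right), with mean and SD, for genes ordered by their KO mean. Mdh2 at 167 and Suclg1 at 14.6 CPM per kb mark the ends of the order in KO cells, and Ogdh and Sucla2 are the pairs with a visible step between groups.

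Summed over the 9 genes, the level was 2104, 2222, 2176 and 2201 CPM in KO libraries 1 to 4 and 2061, 2077, 2086 and 2015 CPM in WT libraries 1 to 4. Every KO library was above every WT library, with means of 2176 ± 51.4 CPM in KO cells and 2060 ± 31.2 CPM in WT cells (SD, n = 4 each). The difference between means was 116 CPM, of which Ogdh, the most abundant of the 9 by CPM in KO cells, made up the greater part. No test was made on this sum.

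Enzymes that work in the same complex or at neighbouring steps were then set against each other by their ratio per length in each library. Of 14 ratios, 0 passed an adjusted p of 0.05 by the exact permutation test (2-sided), and the smallest p that 4 against 4 libraries allows, 0.0286, becomes 0.20 over the 14. Ogdh against Dlst, the E2 subunit of the same complex, was 4.33, 4.79, 4.51 and 5.04 in KO libraries and 4.28, 3.83, 3.87 and 3.39 in WT libraries. The groups of this ratio did not overlap, though KO library 1 and WT library 1 were close (means 4.66 in KO cells and 3.83 in WT cells, exact permutation p = 0.0286, adjusted p = 0.20).
Sucla2 against Suclg2, which compares the ATP-forming with the GTP-forming beta subunit, averaged 2.01 in KO cells and 1.64 in WT cells (exact permutation p = 0.0571, adjusted p = 0.20). Fh1 against Sdha averaged 0.688 in KO cells and 0.776 in WT cells with the same p values. The 3 ratios among the subunits of isocitrate dehydrogenase differed by -0.099 to 0.069 on the log2 scale, with a smallest exact permutation p of 0.114.

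Other genes of the cycle were Idh2, Dlst, Dld, Suclg2 and the 4 subunits of succinate dehydrogenase, 8 in all. Of these 2 rose, 0 fell (0 also without adjustment, by DESeq2 and by limma voom) and 6 did neither, and all 8 kept an absolute log2 fold change under 0.5. Over all tested genes 21.7% rose and 21.1% fell. Here and in the lists below, a count near these shares is no result about the list. Idh2, the NADP-dependent isocitrate dehydrogenase of the matrix, had 432, 469.7, 449.7 and 440.3 CPM in KO libraries and 410.1, 399, 403 and 400.4 CPM in WT libraries. Idh2 rose by 0.15 on the log2 scale (SE 0.0428, edgeR adjusted p = 0.00947), with no overlap. Sdha, the flavoprotein subunit of succinate dehydrogenase, had 292, 297, 303 and 296 CPM in KO libraries and 268, 266, 255 and 279 CPM in WT libraries, which do not overlap either (log2 fold change 0.15, SE 0.0441, edgeR adjusted p = 0.0109).
With the mitochondrial share as a covariate Idh2 was still called and Sdha, at 0.12, was not. The partners of Ogdh in its complex did not pass the test: Dlst had a log2 fold change of -0.042 and Dld, the E3 subunit, of -0.041. Suclg2, the beta subunit of the GTP-forming ligase, had -0.069 and did not pass. Neither did Sdhb (0.065), Sdhc (0.0030) and Sdhd (-0.027), the iron-sulphur subunit and the membrane anchors of succinate dehydrogenase.

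In the cytosol, 2 of 4 counterparts rose. Aco1, which encodes cytosolic aconitase, also known as iron regulatory protein, had 296, 304, 273 and 283 CPM in KO libraries and 217.5, 221, 222 and 233 CPM in WT libraries. The log2 fold change was 0.37 (SE 0.0476, edgeR adjusted p = 1.12e-05), and no KO library came near the WT range. Idh1, the cytosolic NADP-dependent isocitrate dehydrogenase, had 887, 865, 925 and 866 CPM in KO libraries and 656, 689.6, 657 and 748 CPM in WT libraries. It rose by 0.36 (SE 0.0493, edgeR adjusted p = 1.96e-05), again without overlap. Mdh1, the cytosolic malate dehydrogenase, had a log2 fold change of 0.077 (edgeR adjusted p = 0.263), and passed the test only when WT library 4 was left out (0.13, edgeR adjusted p = 0.0485). Acly, which cleaves exported citrate, had the highest CPM of the 4, 2163 ± 97.4 in KO cells and 2256 ± 156 in WT cells, and a log2 fold change of -0.061 that did not pass the test.

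**Figure D3:**
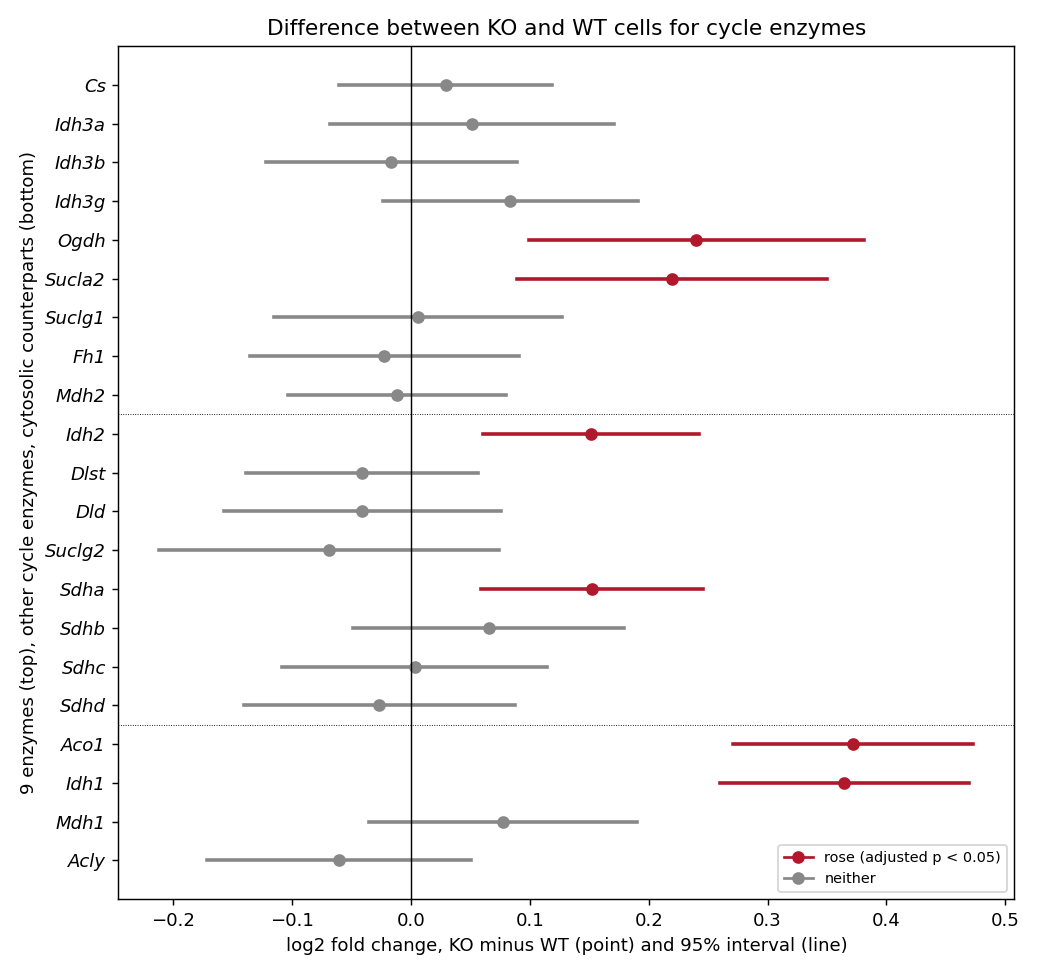
Points give the log2 fold change (x axis, KO minus WT) and lines its 95% interval for the 9 enzyme genes (top), 8 other cycle genes (middle) and the 4 cytosolic counterparts (bottom), red where the gene rose. Ogdh at 0.24 and Sucla2 at 0.22 are the 2 red genes of the top block, and the longest shifts are those of Aco1 at 0.37 and Idh1 at 0.36 in the bottom block.

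Pyruvate enters the cycle as acetyl-CoA through the pyruvate dehydrogenase complex or as oxaloacetate through pyruvate carboxylase. Of 13 tested genes of this entry 3 rose, 4 fell and 6 did neither, with a median of -0.033. Over all tested genes the shares were 21.7% and 21.1%. The catalytic subunits were among those that did not pass, with log2 fold changes of 0.013 for Pdha1, -0.082 for Pdhb and -0.033 for Dlat. Pdk1, a kinase that inactivates the complex, had 61.8, 58.6, 62.9 and 65.3 CPM in KO libraries and 98.4, 91.2, 93.9 and 94.4 CPM in WT libraries. It fell by 0.60 on the log2 scale (SE 0.0519, edgeR adjusted p = 1.50e-07). Pdhx, which tethers the E3 subunit to the complex, rose by 0.41, and Mpc1, a subunit of the mitochondrial pyruvate carrier, fell by 0.33, a call lost without KO library 3 or without KO library 4 (edgeR adjusted p = 0.059 for both). Without KO library 4, the genes of this list that fell numbered 2. Pcx, pyruvate carboxylase, rose by 0.97, and lies on chromosome 19, where the median log2 fold change of all tested genes was 0.51. Centred on that median, Pcx was higher by 0.46 and still called (t test adjusted p = 0.000135).

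Partners of the 2-oxo acid dehydrogenases and the enzymes that attach their lipoyl groups numbered 9 tested, of which 1 rose and 0 fell (0 also without adjustment, by DESeq2 and by limma voom), with a median of 0.12. The one that rose was Lias, lipoyl synthase, which was named after its value was seen (34.0 ± 1.91 CPM in KO cells and 26.7 ± 1.25 CPM in WT cells, log2 fold change 0.35, edgeR adjusted p = 0.000408). The most abundant genes of this list were Bckdk, the kinase of the branched-chain enzyme, at 0.099, and Dbt, the E2 subunit of that enzyme, at -0.088 on the log2 scale, and neither passed the test. Of the 4 assembly factors of succinate dehydrogenase 2 rose. For Sdhaf3 the rise was 0.37, which missed the threshold in DESeq2 (adjusted p = 0.0507), without KO library 1 (edgeR adjusted p = 0.0523) and with the mitochondrial share as a covariate (edgeR adjusted p = 0.292). Sdhaf2 rose by 0.40 and lies on chromosome 19, and it turned to -0.12 when centred on the median there.

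Carriers that move cycle intermediates across the inner membrane numbered 7 tested, of which 3 rose and 0 fell (0 also without adjustment, by DESeq2 and by limma voom), with a median of 0.26. Slc25a22, a glutamate carrier, rose to 85.0 ± 4.76 CPM in KO cells, against 55.2 ± 4.03 CPM in WT cells (SD, n = 4 each), a log2 fold change of 0.62. Slc25a13, an aspartate and glutamate carrier, rose by 0.32, and Slc25a1, the citrate carrier, rose by 0.26. Slc25a11 and Slc25a10, carriers of 2-oxoglutarate and of dicarboxylates, had log2 fold changes of -0.053 and 0.0088.

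Among 10 genes that link the cycle to glutamine, aspartate and malate, 4 rose and 4 fell. Gls2, a glutaminase, fell by 0.78. Gpt2, the mitochondrial alanine aminotransferase, rose by 0.77 and Me3, a mitochondrial malic enzyme that forms NADPH, rose by 0.64. Got1, the cytosolic aspartate aminotransferase, rose by 0.95, with 0.44 left after centring on its chromosome, 19, and its mitochondrial counterpart Got2 fell by 0.21. Glud1 and Me2, glutamate dehydrogenase and the NAD-dependent malic enzyme of the matrix, fell by 0.29 and 0.21. Got2, Glud1 and Me2 were named here after their values were seen.

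All 6 tested genes of the route that carries propionyl-CoA into the cycle as succinyl-CoA rose, with a median of 0.35 and single values between 0.20 and 0.82. Pcca, the alpha subunit of propionyl-CoA carboxylase, had 89.4, 83.9, 80.2 and 86.5 CPM in KO libraries and 47.7, 47.9, 47.4 and 49.6 CPM in WT libraries, a log2 fold change of 0.82 (SE 0.0531, edgeR adjusted p = 5.77e-09). Mmab, which makes the adenosylcobalamin used by methylmalonyl-CoA mutase, had 39.1, 42.3, 38.8 and 37.0 CPM in KO libraries and 22.8, 23.9, 24.6 and 24.7 CPM in WT libraries (log2 fold change 0.71, SE 0.0635, edgeR adjusted p = 2.28e-07). For neither gene did the groups come close. Mmut, the mutase, rose by 0.37, and Mmaa, which protects it, rose by 0.34, a call lost without KO library 4 (edgeR adjusted p = 0.0688). With the mitochondrial share as a covariate 2 of the 6 were still called.

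Genes of regulators of mitochondrial gene expression numbered 13 tested, of which 5 rose and 4 fell, with a median of -0.092. The number that rose was 2 with centring on the chromosome median and 3 with the mitochondrial share as a covariate. Esrrg, an estrogen-related receptor, rose to 7.87 ± 0.479 CPM in KO cells, against 3.50 ± 0.224 CPM in WT cells (SD, n = 4 each), a log2 fold change of 1.17. Myc fell by 0.74, to 242 ± 27.2 CPM in KO cells, against 405 ± 34.8 CPM in WT cells. Tfb1m, a mitochondrial rRNA methyltransferase, rose by 0.50. Esrra rose by 0.52, but lies on chromosome 19, and centring on its median left 0.011 (t test adjusted p = 0.91).
Of 15 genes used as markers of mitochondrial content, 9 rose and 0 fell, with a median of 0.18. The number that fell was also 0 by DESeq2. It was 1 by limma voom, with total counts in place of TMM, with at least 10 counts in every library and without KO library 3. It was 2 without WT library 1, and 2, Vdac1 and Hspa9, at an unadjusted p under 0.05. Lonp1, the matrix protease, rose by 0.39, Tomm22 and Tomm20, receptors of the outer membrane import complex, by 0.34 and 0.31, and Clpp, another matrix protease, by 0.33. With the mitochondrial share as a covariate 3 of the 15 rose. Over all these lists, genes not named here included, 38 of 91 tested genes rose, 13 fell and 40 did neither, with a median of 0.13, against 21.7% and 21.1% of all tested genes, and 21 rose with that covariate. The lists were chosen with earlier results of these data known, and no test of them as sets was made.

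**Figure D4:**
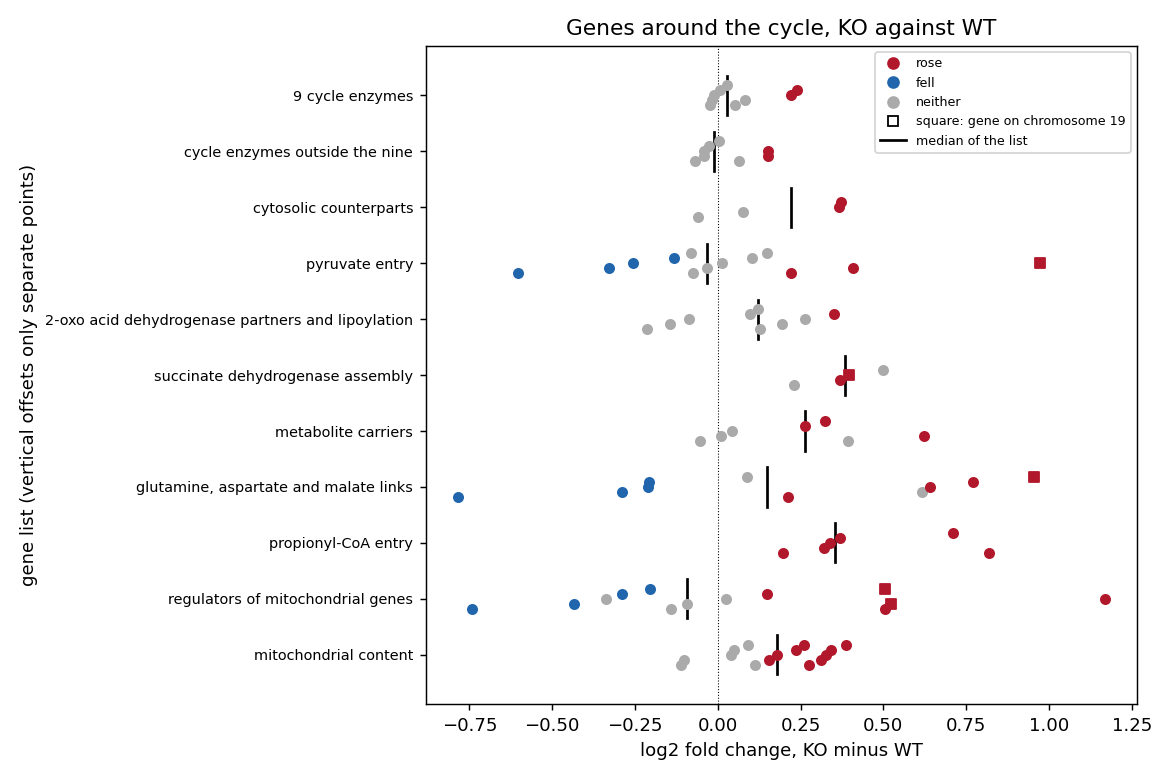
Each point is 1 tested gene, placed by its log2 fold change (x axis, KO minus WT) in the row of its list, red where it rose, blue where it fell and grey where it did neither, with squares for genes on chromosome 19 and a black line at the median of the list. The 9 cycle enzymes in the top row lie between -0.022 and 0.24, with a median of 0.029, while the 6 genes of propionyl-CoA entry all lie right of 0 around a median of 0.35.

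For Ogdh, the enzyme gene with the smallest adjusted p, the 5 protein-coding genes with the most similar profile of log2 CPM over the 8 libraries, each centred on its mean, were Trak1, Zbtb4, Dennd1a, Sun2 and Slc12a7. Their root mean square distance from Ogdh was 0.0332 to 0.0405 on the log2 scale, and their log2 fold changes lay between 0.22 and 0.27. The profiles hold the difference between KO and WT, so fold changes near that of Ogdh follow from the choice. Of the 5 genes, 4 passed the test and Zbtb4 did not (edgeR adjusted p = 0.0865). Trak1 lost its call without KO library 3, KO library 4, WT library 3 or WT library 4, with edgeR adjusted p values of 0.0536 to 0.0807. Sun2 lost its call with centring on the chromosome median (0.17, t test adjusted p = 0.0872).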

How the data were processed

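RNA was measured in 8 libraries, 4 of KO and 4 of WT cells. Poly-T beads were used to select mRNA, per the labels. The authors deposited raw read counts per gene, with gene length in bases as another column, and their processing notes name HISAT2 2.0.5 and featureCounts 1.5.0-p3. Builds listed there are GRCh37, hg19 and mm39, but 9 of 9 enzyme genes overlap their GRCm38.p6 RefSeq positions and 0 of 9 share a start or end with GRCm39, so positions are those of GRCm38. The sources used here state neither the strand setting nor how reads matching several places were counted.

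Counts were filtered by filterByExpr (minimum count 10, minimum total 15), scaled by TMM and compared with edgeR 4.0.16 in R 4.3.3 (glmQLFit and glmQLFTest, genotype as the only term). A Benjamini-Hochberg adjusted p below 0.05 made a call, and rose and fell refer to that call. Ratios used exact permutation tests. Alternatives used DESeq2 1.42.0 and limma 3.58.1, and figures matplotlib 3.10.9. Chromosome centring subtracted the chromosome's median log2 fold change from the edgeR value. The remainder was set against the edgeR SE by a t test with Benjamini-Hochberg adjustment, which leaves out the uncertainty of the median. The genes and lists were chosen with earlier results of these data known. Genes named beside the cycle enzymes and their cytosolic counterparts were, per list, up to 4 called genes of largest fold change reaching 5 CPM on average in the higher group, or the 2 most abundant where fewer than 2 were called, and the 5 nearest profiles to Ogdh. Others named were picked after their values were seen. Results of some genes are not reported here, while counts over all genes, all lists and all ratios include them.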

Additional observations from a re-analysis of the deposited data

Results flagged for a closer look

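Among the 110 groups of 4 libraries examined for single libraries far from the others, 3 stood out by Dixon's criterion, and chance alone gives about 1 in 20 groups. Idh3g was 88.3 CPM in WT library 3, against 82.7 to 83.5 CPM in the other WT libraries. Lonp1 was 1845 CPM in KO library 2, against 1718 to 1734 CPM in the other KO libraries, and 1285 CPM in WT library 4, against 1361 to 1365 CPM in the other WT libraries.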

How the results depend on the processing

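Ogdh and Sucla2 were the called enzyme genes with DESeq2, DESeq2 size factors, total counts, library sizes without mitochondrially encoded genes, both other filters, limma voom, a replicate block and each of the 8 fits without 1 library, where Ogdh ranged between 0.19 and 0.30 and Sucla2 between 0.17 and 0.27. The exceptions were chromosome centring (Sucla2 0.14) and the mitochondrial share as a covariate (Sucla2 0.13), chosen after seeing the data, where the number that rose was 1 each. The covariate moved the pathway genes that rose to 21 and those over all tested genes to 1861 that rose and 1693 that fell. The cause was not tested. The covariate also ended the calls of Sdhaf3, Slc25a13, Me3, Mmut, Mmaa, Tfb1m, Tomm22 and Clpp, beside that of Sdha. Sdhaf2, a called rise, turned to -0.12 with centring. Genes that were not called changed sign: with the covariate Idh3a (-0.10), Suclg1 (-0.081), Mdh2 (0.064), Sdhb (-0.033), Sdhc (-0.071), Mdh1 (-0.074), Acly (0.094) and Bckdk (-0.0013), with centring Idh3b (0.012), Dlst (0.046), Dld (0.046), Suclg2 (0.028) and Dbt (0.14), with total counts Suclg1 (-0.0040) and Sdhc (-0.0070), and with at least 10 counts in every library Suclg1 (-0.0046) and Sdhc (-0.0074). Without 1 library, ranges that crossed 0 were -0.046 to 0.0018 for Idh3b, -0.019 to 0.031 for Suclg1, -0.056 to 0.0098 for Fh1, -0.029 to 0.0085 for Mdh2, -0.021 to 0.036 for Sdhc and -0.056 to 0.026 for Sdhd. Same-numbered libraries did not deviate together (correlations between -0.15 and 0.041 over all tested genes). That gave no sign of pairing by number but cannot exclude it, and the labels do not state it. A replicate block gave 0.24 for Ogdh (edgeR adjusted p = 0.0347) and 0.22 for Sucla2 (edgeR adjusted p = 0.0158), Trak1 was not called under it (edgeR adjusted p = 0.0749), and 2450 genes rose and 2371 fell, against 2856 and 2776 without it. With 4 libraries a group, the interval of each enzyme gene holds a log2 change of about 0.1 upward or downward, but not always both.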
